A study of Mus musculus with 2 samples.

Results

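The genes described here are 9 interferon-induced genes measured in postpartum mouse brain: Ifit1, Ifit2, Ifit3, Irf7, Irf9, Usp18, Mx2, Bst2 and Psmb8. The probes were taken by gene name, without a threshold on their values. Of 41174 probes on the array, 11 carried the name of 8 of these genes. Irf9 was listed under its earlier name Isgf3g and was found through its accession, NM_008394, which added 2 probes and gave 13 probes for 9 of 19505 named genes. The study compared brains of TDAG51-/-, TDAG51+/+ and TDAG51-/-Tg2 dams, TDAG51 being the gene listed as Phlda1, to find transcripts altered with the loss of TDAG51 after parturition. All dams were 8 weeks old, and the whole brain was taken on postpartum day 0. The study names C57BL/6J as its mouse strain and states that the transgenic lines were backcrossed to it. It refers to earlier work for the making of the TDAG51-/- mice. The TDAG51-/-Tg2 dams carried the deletion of the TDAG51-/- dams and, in addition, a TDAG51 transgene under the BAI1-AP4 promoter, which is active mainly in the cerebral cortex and hippocampus, and they came from 1 transgenic line. Total RNA was hybridized to 2 two-colour arrays of 1 slide. The TDAG51-/- sample was labelled with Cy3 on both arrays, and the TDAG51+/+ sample on the first array and the TDAG51-/-Tg2 sample on the second were labelled with Cy5. Each comparison therefore rested on 1 array, the dyes were not swapped, and a dye effect and a genotype effect cannot be told apart. The number of brains in a sample, and whether both TDAG51-/- samples were the same RNA, are not stated in the sources used here, so the spread between dams was not measured and no test across animals was possible.

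Type I interferons are cytokines that cells release on sensing viral nucleic acid. They bind the receptor formed by Ifnar1 and Ifnar2, the kinases Jak1 and Tyk2 phosphorylate Stat2 and other signal transducers, and these assemble with Irf9 into a complex that binds the interferon-stimulated response element (ISRE) upstream of target genes. In the brain, neurons, glia and endothelial cells can all respond, and a low basal expression of target genes is known in the absence of infection. Among the 9 genes, Irf9 and Irf7 are transcription factors of the response, and Ifit1, Ifit2, Ifit3, Mx2 and Bst2 are classed with the antiviral effectors. Psmb8 is a catalytic subunit of the immunoproteasome, which makes peptides for antigen presentation. Usp18 removes the ubiquitin-like modifier Isg15 from proteins and also dampens signalling at the receptor. Protein function was not measured here.

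The interferon genes are known targets of the ISRE, and its core is shown for the members in whose promoter it was found. RefSeq promoters (GRCm38.p6, 250 bases before to 50 bases after the gene's start) were searched on both strands for the half-site GAAA followed by any 2 bases and GAAA again, which reads as TTTC, 2 bases and TTTC on the other strand, and overlapping matches were both kept. The table matched 7 of the 9 genes with 9 promoters, and Usp18 and Mx2 had no entry. The motif was found in 3 of the 9 member promoters and in 3.44% of 32851 promoters in all. Ifit1 held it from 104 and from 85 bases before the start, Ifit3 from 156 and from 122 bases, and Bst2 had overlapping matches from 130 and from 124 bases. In the stretches below, written 5′ to 3′ on the strand of the gene, capitals mark the matches.
Ifit1 (chr19:34640775-34640823, plus strand): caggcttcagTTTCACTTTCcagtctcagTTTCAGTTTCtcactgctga
Ifit3 (chr19:34583363-34583426, plus strand): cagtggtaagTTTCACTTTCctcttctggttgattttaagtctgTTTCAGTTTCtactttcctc
Bst2 (chr8:71537577-71537612, minus strand): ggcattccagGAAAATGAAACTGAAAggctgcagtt
Ifit1 and Ifit3 shared the same pair of 10-base matches, TTTCACTTTC followed by TTTCAGTTTC, at different spacing. The windows of Ifit2, Irf7, Irf9 and Psmb8 did not hold this motif. As described below, Ifit1 and Bst2 were higher and Ifit3 was lower in TDAG51-/- than in TDAG51+/+ brain, each by less than 2-fold, so that the genes with matches lay on both sides of 0.

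The scanner marked all 13 probes as well above background in all 4 channels and 0 as saturated. Intensities are given as scanned, before background correction, over median backgrounds of 39.0 to 44.0 per channel. Differences are given as log2 ratios of the intensities after background correction and normalization, where 1 is a 2-fold difference. Each probe had 1 spot per array. The scanner's error for a member's ratio was 0.20 to 0.26 on the log2 scale, and among 245 probes with at least 5 spots the median SD between spots of an array was 0.063 and 0.065. A second measure of error was the difference between the TDAG51-/- channels of the 2 arrays, whose robust SD at the intensities of the members was 0.13 to 0.16. This difference covers labelling and hybridization and, if the RNA was the same, no spread between dams. Both channels carried Cy3, so it holds no difference between the dyes, which the ratios can hold. Over probes detected on both arrays, its robust SD was 0.14. That of the ratios was 0.50 against TDAG51+/+ and 0.49 against TDAG51-/-Tg2. A ratio past the local SD is therefore not shown to be past a dye effect. A gene with several probes was represented by the brightest, and the dimmer probes of the members are given beside it.

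The interferon-induced genes lay on both sides of 0 in TDAG51-/- brain. By the brightest probe, 7 of 9 were above 0 against TDAG51+/+ (49.2% of all genes), 5 of 9 against TDAG51-/-Tg2 (50.4%), and 7 of 9 for TDAG51-/-Tg2 over TDAG51+/+ (47.9%). Usp18 was the only one of the 9 at least 2-fold higher than in TDAG51+/+ brain and Mx2 the only one at least 2-fold lower, at 1.29 and -1.28 on the log2 scale. Compared with TDAG51-/-Tg2 brain, 0 of the 9 genes was at least 2-fold higher or lower, and the log2 ratios lay between -0.56 and 0.80. Between the 2 control genotypes, in Cy5 across the arrays, 0 genes were at least 2-fold higher in TDAG51-/-Tg2 brain and 1, Ifit3, was at least 2-fold lower. Over all genes tested by the brightest probe, the shares past 2-fold upwards and downwards were 4.55% and 4.90% for TDAG51-/- over TDAG51+/+, 4.42% and 4.09% for TDAG51-/- over TDAG51-/-Tg2, and 3.36% and 4.10% for TDAG51-/-Tg2 over TDAG51+/+. With 9 genes, counts of 0 or 1 are close to what these shares give and are no result about the group. The 9 genes had a median of 0.18 (log2) against TDAG51+/+, beside -0.01 over all genes, and of 0.04 against TDAG51-/-Tg2, beside 0.01. It was 0.35 for TDAG51-/-Tg2 over TDAG51+/+, beside -0.02 over all genes. The comparisons share samples: the TDAG51-/- genotype is in the first and the second, and the TDAG51+/+ channel in the first and the third.

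**Figure D1:**
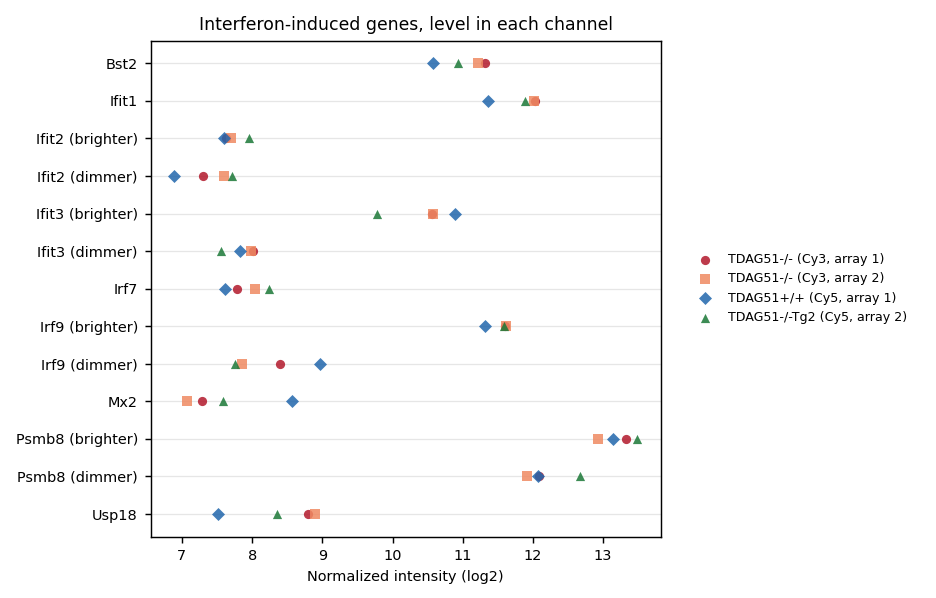
Normalized intensity (log2, x axis) of the 13 probes of the 9 interferon-induced genes in each of the 4 channels, 1 point per channel with no replicates. For Usp18 both TDAG51-/- points lie above both controls, for Mx2 the TDAG51+/+ point lies apart above the other 3, and for Ifit3 (brighter probe) the TDAG51-/-Tg2 point lies apart below.

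Usp18 was among the dimmer members. The first array read 412 in TDAG51-/- and 166 in TDAG51+/+, and the second 434 in TDAG51-/- and 345 in TDAG51-/-Tg2. Both TDAG51-/- channels were above both controls, and the TDAG51-/-Tg2 value lay between TDAG51+/+ and TDAG51-/-. After normalization, TDAG51-/- exceeded TDAG51+/+ by 2.44-fold (log2 1.29, scanner error 0.26) and TDAG51-/-Tg2 by 1.45-fold (log2 0.54, scanner error 0.21). TDAG51-/-Tg2 exceeded TDAG51+/+ by 1.79-fold (log2 0.84), while the TDAG51-/- channels differed from each other by 0.09, with a local SD of 0.14. The probe (NM_011909) lies on chromosome 6 of mm7 from 121295796 to 121295855.

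The transcription factors differed less. Irf9, the DNA-binding subunit of the complex with Stat2, had intensities of 2814 in TDAG51-/- and 2750 in TDAG51+/+, and of 2848 in TDAG51-/- and 3379 in TDAG51-/-Tg2, by its brighter probe. The log2 ratio was 0.29 (scanner error 0.21) against TDAG51+/+ and 0.04 (scanner error 0.20) against TDAG51-/-Tg2. This put TDAG51+/+ lowest and left the other 3 channels within 0.04 of each other, less than the local SD of 0.13. The dimmer Irf9 probe went the other way. It read 302 in TDAG51-/- and 498 in TDAG51+/+ on the first array, and 202 in TDAG51-/- and 217 in TDAG51-/-Tg2 on the second, with log2 ratios of -0.57 and 0.10 in the same order, and -1.21 for TDAG51-/-Tg2 over TDAG51+/+. Its TDAG51-/- channels differed by 0.54 between the arrays, 1 of 2 member probes where they were more than 2 local SDs apart. The brighter probe lies on chromosome 14 from 50476767 to 50476826 and the dimmer one has listed coordinates from 50473491 to 50473701.

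Irf7, the factor that amplifies interferon production, was measured near the lower end of the range. Intensities were 199 in TDAG51-/- and 183 in TDAG51+/+, then 242 in TDAG51-/- and 316 in TDAG51-/-Tg2. The log2 ratio was 0.17 against TDAG51+/+ and -0.20 against TDAG51-/-Tg2, each within its scanner error of 0.21. TDAG51-/-Tg2 was 1.54-fold higher than TDAG51+/+ (log2 0.63), but the TDAG51-/- channels also differed between the arrays by 0.26, and the difference of both ratios through TDAG51-/- was 0.36. The probe (NM_016850) is on chromosome 7, at 137682028 to 137682378.

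Of the Ifit genes, which encode RNA-binding proteins that restrict viral translation and lie in 1 cluster on chromosome 19, Ifit1 was the brightest. It read 3756 in TDAG51-/- and 2848 in TDAG51+/+, and 3725 in TDAG51-/- and 4243 in TDAG51-/-Tg2. The TDAG51+/+ level was lowest and the other 3 were close together: the log2 ratio was 0.66 (scanner error 0.21) against TDAG51+/+, a 1.58-fold difference, and 0.12 (scanner error 0.20) against TDAG51-/-Tg2. Its TDAG51-/- channels differed by 0.01 between the arrays. The probe (NM_008331) lies from 34350610 to 34350669.

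Ifit3 differed from Ifit1 in the order of its channels. Its brighter probe (NM_010501, 34289919 to 34289978) read 1367 in TDAG51-/- and 1995 in TDAG51+/+, and 1408 in TDAG51-/- and 947 in TDAG51-/-Tg2. TDAG51+/+ was highest, TDAG51-/-Tg2 lowest, and the TDAG51-/- channels, 0.02 apart, lay between them. The log2 ratio was -0.33 (scanner error 0.21) against TDAG51+/+ and 0.80 (scanner error 0.22) against TDAG51-/-Tg2, and TDAG51-/-Tg2 was 2.15-fold lower than TDAG51+/+ (log2 -1.11). A dimmer probe listed as Ifit3 (AK077243, 34313887 to 34313946) lies 23968 bases further on and read 238, 217, 228 and 188 in the order above, with log2 ratios of 0.20 and 0.43. The gene has close relatives in this cluster, and which of them the dimmer probe measured is uncertain. By that probe TDAG51-/-Tg2 was again lowest, at -0.27 against TDAG51+/+.

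Ifit2 was dim. The brighter probe (NM_008332, 34275121 to 34275180) read 174 in TDAG51-/- and 173 in TDAG51+/+, and 182 in TDAG51-/- and 253 in TDAG51-/-Tg2, with log2 ratios of 0.03 and -0.26. The first value was within the scanner error of 0.21, and the second was close to its error of 0.22. The dimmer probe (34277058 to 34277117) read 141 and 101, then 168 and 212, with log2 ratios of 0.42 against TDAG51+/+ and -0.11 against TDAG51-/-Tg2. Both probes had TDAG51+/+ lowest and TDAG51-/-Tg2 highest, at 0.35 and 0.83 for TDAG51-/-Tg2 over TDAG51+/+.

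Mx2, a gene of the dynamin-like GTPase family, was lowest in both TDAG51-/- channels. The intensity was 136 in TDAG51-/- and 363 in TDAG51+/+ on the first array, and 111 in TDAG51-/- and 190 in TDAG51-/-Tg2 on the second. TDAG51+/+ stood apart, and TDAG51-/-Tg2 was closer to TDAG51-/- than to TDAG51+/+. The level was 2.43-fold lower in TDAG51-/- than in TDAG51+/+ (log2 -1.28, scanner error 0.26) and 1.43-fold lower than in TDAG51-/-Tg2 (log2 -0.52, scanner error 0.24). TDAG51-/-Tg2 was 1.97-fold lower than TDAG51+/+ (log2 -0.98), just inside the threshold of 2-fold, and the TDAG51-/- channels differed by 0.22. The probe (NM_013606) is on chromosome 16 from 97944478 to 97944537. Its relative Mx1, from the pathway list below, had ratios of -0.08 and 0.04.

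Bst2, which tethers budding virus to the cell surface, read 2342 in TDAG51-/- and 1625 in TDAG51+/+, and 2174 in TDAG51-/- and 2134 in TDAG51-/-Tg2. The order was that of Usp18, with TDAG51+/+ lowest, TDAG51-/-Tg2 next and both TDAG51-/- channels on top. The log2 ratio was 0.75 (scanner error 0.22) against TDAG51+/+, a 1.68-fold difference, and 0.28 (scanner error 0.21) against TDAG51-/-Tg2. The probe (NM_198095) is on chromosome 8 from 70001866 to 70001925.

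Psmb8 was the brightest member, with intensities by its brighter probe of 8650 in TDAG51-/- and 10477 in TDAG51+/+, and of 6707 in TDAG51-/- and 13683 in TDAG51-/-Tg2. The second probe read 3879 and 4753, then 3413 and 7403. By both probes TDAG51-/-Tg2 was highest. The log2 ratios were 0.18 and 0.01 against TDAG51+/+ and -0.56 and -0.76 against TDAG51-/-Tg2, with scanner errors of 0.20 for the former and of 0.21 and 0.22 for the latter. The brighter probe's TDAG51-/- channels differed by 0.39, the other case of more than 2 local SDs. The probes (NM_010724) lie on chromosome 17 of mm7, at 32280725 to 32281049 and at 32280668 to 32280727. Whether a probe lies in an exon or an untranslated region was not determined for any member, as no annotation of mm7 was used here.

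**Figure D2:**
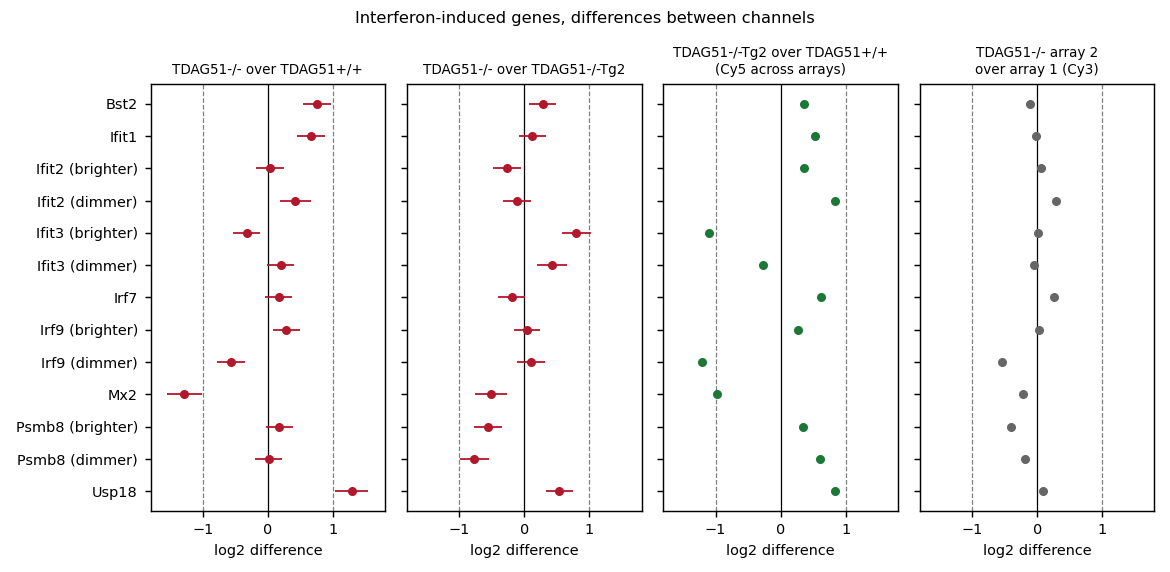
Log2 difference (x axis) of the 13 probes in TDAG51-/- over TDAG51+/+, TDAG51-/- over TDAG51-/-Tg2, TDAG51-/-Tg2 over TDAG51+/+ across arrays, and between the TDAG51-/- channels. Bars in the first 2 panels are the scanner's error for a spot, the other panels carry none, and dashed lines mark 2-fold. Usp18 (1.29) and Mx2 (-1.28) lie past the lines in the first panel, 0 probes in the second, and Ifit3 (-1.11) and the dimmer Irf9 probe (-1.21) in the third.

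Counted by probe, 1 of the 13 lay past 2-fold upwards and 1 downwards for TDAG51-/- over TDAG51+/+ (4.90% and 4.42% of all probes tested), 0 and 0 for TDAG51-/- over TDAG51-/-Tg2 (4.72% and 3.86%), and 0 and 2 for TDAG51-/-Tg2 over TDAG51+/+ (3.78% and 4.13%). Among all probes tested, Usp18 ranked at the 97.5th percentile and Mx2 at the 2.3rd of the ratios against TDAG51+/+, and at the 84.2nd and 14.8th against TDAG51-/-Tg2. By the brightest probe, 4 genes (Bst2, Ifit1, Irf9 and Usp18) had TDAG51+/+ lowest and TDAG51-/-Tg2 next. In 2 more, Ifit2 and Irf7, TDAG51+/+ was lowest and TDAG51-/-Tg2 highest. These orders all rest on the same TDAG51+/+ channel. The share of all genes with such orders was not computed, so the counts are no result about the group. For Irf9 the channels above TDAG51+/+ did not differ beyond their local SD, for Ifit1 the gap of 0.12 between TDAG51-/-Tg2 and the nearer TDAG51-/- channel was within it (0.13), and for Ifit2 neither TDAG51-/- channel differed from TDAG51+/+ beyond 0.15.

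**Figure D3:**
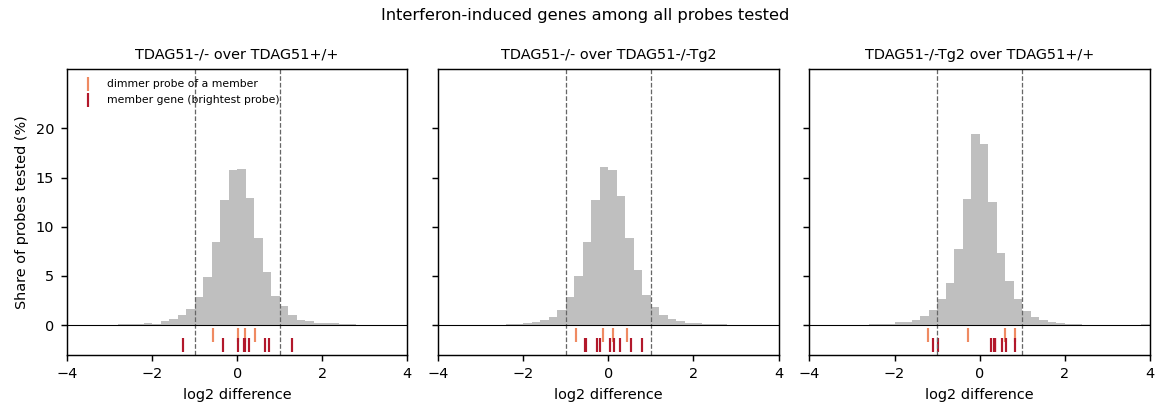
Share of all probes tested (%, y axis) by log2 difference (x axis, bars of 0.2, values past the axis put in the end bars) in 3 comparisons, with ticks below for the 9 member genes and for the dimmer probes of 4 of them. The members lie on both sides of 0 in each panel, and dashed lines mark 2-fold.

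The pathway around these genes was described with a list of 97 other genes, of which 93 had a probe and Xaf1, Dtx3l, Psme2 and Nlrc5 had none. It covers ligands, receptors and signal transducers, inhibitors, nucleic acid sensors, effectors and antigen processing. Of 85 genes tested against TDAG51+/+, 8 (9.41%) lay past 2-fold upwards and 3 (3.53%) downwards in TDAG51-/-, beside 4.55% and 4.90% over all genes, and the median log2 ratio was 0.04. Of 84 tested against TDAG51-/-Tg2, 6 (7.14%) were higher and 3 (3.57%) lower, beside 4.42% and 4.09%, with a median of 0.01. In TDAG51-/-Tg2 over TDAG51+/+, 0 of 84 lay past 2-fold upwards and 7 (8.33%) downwards, beside 3.36% and 4.10%, with a median of 0.06.

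Ligands were dim. Ifna2, Ifna4, Ifng and Ifne were not well above background in any channel, and Ifnk was so on the first array only. Ifnb1, which encodes interferon beta, read 426 in TDAG51-/- and 734 in TDAG51+/+, and 387 in TDAG51-/- and 319 in TDAG51-/-Tg2, with log2 ratios of -0.61 and 0.49. Ifna1 read 161, 298, 140 and 128 in that order, with log2 ratios of -0.78 and 0.31. Both were highest in TDAG51+/+ and lowest in TDAG51-/-Tg2, at -1.23 and -1.22 for TDAG51-/-Tg2 over TDAG51+/+, an order shared with Ifit3 by its brighter probe.

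Of the receptor chains and signal transducers, Stat2 was at least 2-fold higher in TDAG51-/- than in both controls. Stat2 read 2562 in TDAG51-/- and 1427 in TDAG51+/+, and 2762 in TDAG51-/- and 1628 in TDAG51-/-Tg2, log2 ratios of 1.06 and 1.01, and the controls differed by 0.15. The type I receptor chains were at -0.30 and -0.44 (Ifnar1) and at 0.02 and 0.25 (Ifnar2). A dimmer Ifnar2 probe, well above background in all 4 channels, went the other way, at -0.26 and -0.42. The interferon gamma receptor chains were at 0.55 and 0.34 (Ifngr1) and at -0.33 and -0.37 (Ifngr2). The dimmer Ifngr2 probe, also well above background, was at 0.19 and 0.03. Jak1 was at 0.00 and 0.02, and by its dimmer probe at 0.02 and 0.09. The probes of Jak2 disagreed: the brighter was at -0.36 and 0.10, the dimmer at 1.54 and 1.24. Both were well above background in all 4 channels. Tyk2 was at -0.12 against TDAG51+/+ and -0.93 against TDAG51-/-Tg2.

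The cytoplasmic RNA sensors Ddx58 (RIG-I) and Dhx58 (LGP2) were past 2-fold against both controls by their brightest probes. Ddx58 read 600 in TDAG51-/- and 170 in TDAG51+/+, and 583 in TDAG51-/- and 185 in TDAG51-/-Tg2, at log2 1.81 and 1.76. Dhx58 read 1387 and 508, then 1349 and 527, at log2 1.58 and 1.56. Both control channels were nearly level for these genes (0.02 and -0.03), unlike for Usp18. As the dyes were the same on both arrays, ratios this alike do not tell a dye effect from a genotype effect. The probes of Ddx58 disagreed: a dimmer one was at -0.28 and 0.08, and the other 2 were not well above background in any channel, as was the second probe of Dhx58. Tlr7, an endosomal RNA sensor, was at -0.43 and 0.71, with TDAG51-/-Tg2 at -1.36 against TDAG51+/+.

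Among effectors past 2-fold, Uba7, the enzyme that activates Isg15, was at 1.23 against TDAG51+/+ and 2.24 against TDAG51-/-Tg2, and Isg15 itself, the substrate of Usp18, at -0.39 and -0.75. The immunity-related GTPase Ifi47 was 2.83-fold and 2.03-fold higher, and Gbp6 at 1.55 and 0.54. Oas2, an oligoadenylate synthetase that responds to double-stranded RNA, was at 0.98 and 1.70 by its only probe above background. Ifitm2, which blocks viral entry, was at 1.36 and 0.94, but its dimmer probe was at 0.19 and -0.26. The exonuclease gene Isg20 read 3605 in TDAG51+/+ against 636 and 435 in TDAG51-/- and 439 in TDAG51-/-Tg2, with log2 ratios of -2.28 and 0.21, and its second probe gave -2.37 and 0.68. Rsad2 (viperin) was at -1.24 and 0.63 by its brightest probe, while a dimmer one was at -0.16 and -0.07 and the third was not above background. Ciita, the regulator of MHC class II genes, was at -0.36 and -1.21.

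**Figure D4:**
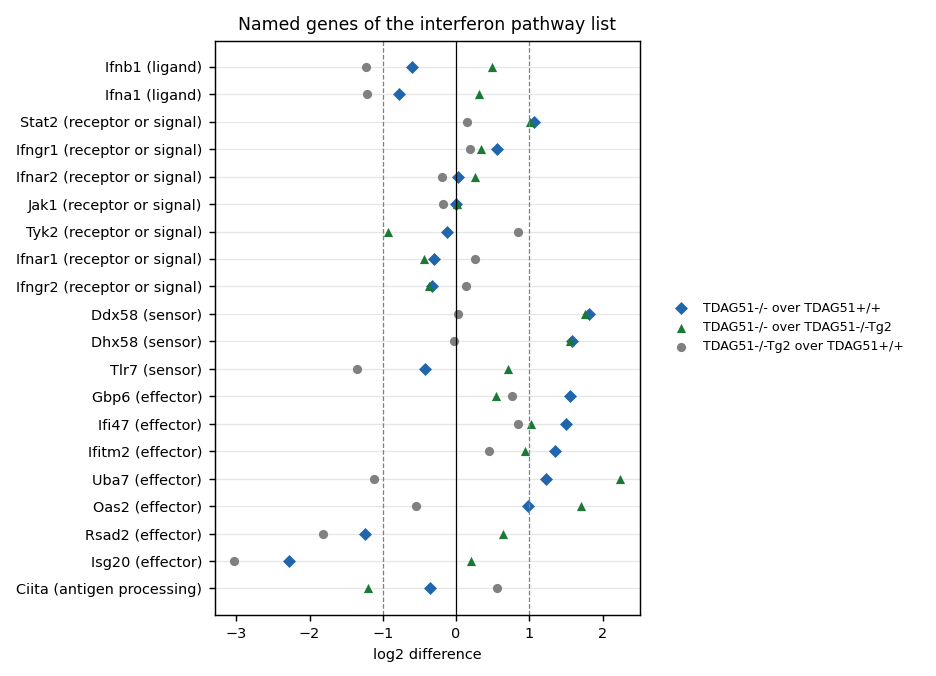
Log2 difference (x axis) of pathway genes in 3 comparisons with no replicates, by their brightest probe and ordered by role. Shown are those named in the text that were well above background in all 4 channels, without Mx1, Isg15 and Jak2. Dashed lines mark 2-fold. Stat2, Ddx58, Dhx58, Uba7 and Ifi47 lie past 2-fold on the right against both controls, and Isg20 lies furthest left.

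Cell type markers were read beside these values. In a sample of whole brain, fewer cells of a type and less RNA per cell cannot be told apart. All 8 neuron markers and all 10 markers each of microglia and endothelium were well above background in all channels. The endothelial markers had median log2 ratios of 0.50 (TDAG51+/+) and 0.11 (TDAG51-/-Tg2), with 0 of 10 past 2-fold. Their summed normalized levels were 54662 and 47465 in TDAG51-/-, 38413 in TDAG51+/+ and 43838 in TDAG51-/-Tg2. Flt1, at 0.49 and -0.04, was the brightest of them in every channel and weighs most in these sums. The microglial markers had medians of -0.41 and -0.20, with 0 of 10 at least 2-fold higher against either control, 1 and 2 at least 2-fold lower, and summed levels of 40910 and 40489, 48810 and 46561. Of 11 leukocyte markers, 3 were at least 2-fold higher against each control, the neutrophil genes S100a8 (2.07 and 2.10) and S100a9 (1.62 and 1.58) and the cytotoxic cell gene Nkg7 (1.43 and 1.01), while 7 of the 11 were below 0 against TDAG51+/+ and 4 against TDAG51-/-Tg2, among them the natural killer cell gene Klrd1 (-0.26 and -0.51). The medians were -0.12 and 0.23. Summed leukocyte levels were 35116 and 43129, 37641 and 22956, of which Ly6c1 alone made up 76.3% to 88.4%, and without it they were 8307 and 8089, 4349 and 4469. The 6 choroid plexus markers had medians of 0.70 and 0.54, with 2 and 1 past 2-fold upwards, 1 and 0 downwards, and summed levels of 18716 and 17397, 10217 and 10603. For the 6 astrocyte markers, of which 2 were saturated, the medians were 0.33 and 0.31, with 0 and 1 at least 2-fold higher. The medians were -0.20 and 0.46 for the 6 oligodendrocyte markers and -0.04 and -0.05 for the neuron markers. Of the oligodendrocyte markers 2 were saturated, and of the neuron markers also 2. Mag was saturated in all 4 channels, so its ratios of 0.75 and 0.76 do not measure a difference. The erythroid genes Alas2 (-1.42 and 1.27) and Slc4a1 (-0.78 and 1.24) were highest in TDAG51+/+ and lowest in TDAG51-/-Tg2. By their brightest probes, Ifit3, Ifnb1, Ifna1, Isg20, Rsad2 and Tlr7 had the same order. Further pathway genes such as Jak2 had it too, as did the markers Folr1 (choroid plexus), Mog (oligodendrocyte) and Cd8a (leukocyte). The share of all genes with this order was not computed, so sharing it is no result about these genes. The erythroid gene Hba-a1 did not have this order and differed by 4.04 between the TDAG51-/- channels. Summed over the 3 erythroid genes with a probe, levels were 5474 and 46524, 35583 and 19918. The part of these cell types in the values of the interferon genes was not tested.

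As a check of the labels, the probe of Phlda1 (NM_009344) read 350 in TDAG51-/- and 7283 in TDAG51+/+, 17.3-fold lower. On the second array it read 44.1 in TDAG51-/- and 50.5 in TDAG51-/-Tg2 and was not well above background in either, so it did not show the transgene. The TDAG51-/- channel of the first array was well above background at this probe. The TDAG51-/- channels thus disagreed at the targeted gene, and the cause was not tested. Median intensities over all probes were 325 and 322 in the TDAG51-/- channels, 348 in TDAG51+/+ and 368 in TDAG51-/-Tg2, and 75.5% to 82.3% of probes were well above background.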

How the data were processed

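The authors scanned the arrays with Agilent Feature Extraction 9.5.3.1. Its deposited tables hold the mean and the background intensity of each spot, flags, and the software's corrected log10 ratio (red dye over green) with an error. The authors also deposited a table of log2 ratios. The latter differed from the scanner's ratio, as log2 of Cy3 over Cy5, by a median of 0.0059 and 0.0058, with column medians of -0.01 on both arrays. The steps behind that table are not given in the sources used here. Probe coordinates are on mm7.

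Here, background correction used limma 3.58.1 (normexp with an offset of 50; R 4.3.3, with the data.table package, version 1.17.8), followed by loess within arrays, where control and outlier spots (375 and 300) had no weight. Levels per channel were then set on 1 scale by Aquantile. Ratios are Cy3 over Cy5, and the third comparison is the Cy5 level of the second array minus that of the first, made on separate arrays. A probe entered a comparison when the scanner marked it well above background in either of its channels, and was set against the methods' threshold of 2-fold, without p-values. The local SD is 1.4826 times the median absolute deviation of the difference between the TDAG51-/- channels over the 500 probes on each side in intensity. Of 41174 probes, 32719 were named (22951 by accession, 6659 by symbol, 3109 by synonym). The method was tested on simulated data. Python 3.11.15, numpy 2.4.6, pandas 2.3.3 and matplotlib 3.10.9 were used.

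The members, gene lists and rules were chosen with earlier results of these data known. Named by rule are all members, the listed ligands, the receptors and the JAK-STAT genes other than Jak2. To these come at most 12 further pathway genes with the largest differences past 2-fold in any comparison. The results of some of these genes are not given singly here, though the counts and medians hold them. Mx1 and Isg15 were added as relatives of members, Jak2 was added as a further JAK gene, and the marker genes printed were chosen, after their values were seen. Alternatives were offset 0, the scanner's ratio or Cy5 signal, median centring, no normalization, the deposited ratio, quantile normalization of Cy5, the difference through TDAG51-/-, the median of a gene's probes, other filters and a threshold of 1.5-fold. Leaving out Irf9 was chosen after seeing the data. The number of arrays limits the precision.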

Additional observations from a re-analysis of the deposited data

Results flagged for a closer look

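In 4 genes among the members and the pathway list, with cell type markers not included, the ratio of TDAG51-/- over its control had opposite signs on the 2 arrays, with both values more than 2 local SDs from 0 and at least 1 apart on the log2 scale. Ifit3 was at -0.33 against TDAG51+/+ and 0.80 against TDAG51-/-Tg2. Ifnb1 was at -0.61 and 0.49, Tlr7 at -0.43 and 0.71, and Rsad2 at -1.24 and 0.63. By these brightest probes, all 4 were highest in TDAG51+/+ and lowest in TDAG51-/-Tg2. A dimmer probe listed as Ifit3 was above 0 in both comparisons (0.20 and 0.43). A dimmer Rsad2 probe was at -0.16 and -0.07. The share of all genes that meet this rule was not computed. The difference between the arrays was not tested, as each ratio was measured once.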

How the results depend on the processing

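No paired analysis was possible because each group has 1 array. Across the settings tried, Usp18 stayed between 1.19 and 1.71 against TDAG51+/+ and Mx2 between -1.78 and -1.22, and their counts of 1 higher and 1 lower were kept in all but the 1.5-fold threshold, which gave 3 genes higher against TDAG51+/+, 1 higher against TDAG51-/-Tg2, and 2 higher and 2 lower in TDAG51-/-Tg2 over TDAG51+/+. In that last comparison, offset 0 and the scanner's Cy5 signal each gave 1 gene higher and 2 lower, and the median of a gene's probes 0 lower. Without normalization, the median of all genes was -0.27 against TDAG51+/+ and -0.30 against TDAG51-/-Tg2, with 3.04% higher and 9.77% lower in the first and 2.49% and 9.72% in the second. The members' medians were then 0.030 and -0.24, the pathway's -0.15 and -0.27, 1 member was lower against TDAG51-/-Tg2, and 5 pathway genes were lower in each comparison. Median centring set the median of all genes at -0.12 in both. The deposited ratio gave 5 pathway genes lower in each comparison, and the scanner's ratio 5 against TDAG51-/-Tg2. In TDAG51-/-Tg2 over TDAG51+/+, quantile normalization and the difference through TDAG51-/- each gave 2 pathway genes higher, and offset 0 and the scanner's signal 9. At 1.5-fold, the pathway counts were 18 higher and 8 lower against TDAG51+/+, 13 and 9 against TDAG51-/-Tg2, and 13 and 11 in TDAG51-/-Tg2 over TDAG51+/+. Of the other group values, 130 kept within 1.5 times the count or 0.14 of the median, and no named gene past 2-fold changed sign. Smaller values of members did: without normalization Psmb8 (-0.28) and Ifit2 (-0.04) against TDAG51+/+ and Ifit1 (-0.19) and Irf9 (-0.24) against TDAG51-/-Tg2, with median centring Psmb8, Ifit1 and Irf9 in the same comparisons, and over its probes Irf9 against TDAG51+/+ (-0.14) and for TDAG51-/-Tg2 over TDAG51+/+ (-0.47). The cause of these changes was not tested. Psmb8 reached -1.03 against TDAG51-/-Tg2 without normalization, and Ifit3 over probes gave -0.69 for TDAG51-/-Tg2 over TDAG51+/+. Signal over background limits the values of Ifit2, Irf7, Mx2 and Usp18.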
